A study of Homo sapiens with 10 samples.

Results

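The BCL2 family holds the proteins that set, at the mitochondrial outer membrane, whether a cell survives or enters apoptosis. Messenger RNA of 10 of its genes was followed in 22RV1, a human prostate cancer line in long use as a model of castration-resistant disease. The genes were taken by name: the survival genes MCL1, BCL2L1 and BCL2L2, the BH3-only death genes BCL2L11, PMAIP1, BBC3, BID and BIK, and the effectors BAX and BAK1. They are 10 of the 31015 genes to which the 3′ intervals of the tables could be matched. The study asked how inhibition of CDK12, a kinase that keeps RNA polymerase II elongating, and of SRPK1, a kinase of splicing factors, changes transcription, and 10 libraries in 5 groups of 2 were used here. The groups were control cells with no treatment and cells kept for 4 h in SRPIN340 (an SRPK1 inhibitor, 20 μM), in Endovion (tested by the study as an SRPK1 inhibitor too, 50 μM), in the CDK12 inhibitor THZ531, or in THZ531 + Endovion. The methods give the dose of THZ531 as 100 nM and the description of the series as 150 nM. The combination of SRPIN340 and THZ531 was not analysed here, and all groups are cultures of the same line.

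Newly made RNA was marked with 4-thiouridine for the last 10 min, and labelled T positions are read as C after alkylation. A read that holds such a T>C conversion is called nascent here, all reads of a gene are called total, and the labelled share is the percentage of a gene's reads that carry a conversion. Levels are given as CPM, the reads of a gene divided by the scaled library size and multiplied by 1000000, from T>C reads for nascent RNA and from all reads for total RNA. The libraries were primed on the poly(A) tail, so that reads lie near the polyadenylation site. Splice forms of a gene that share a 3′ end are therefore counted together. A level or change given for a gene, BCL2L1 and MCL1 included, does not say which of its protein forms is coded for.

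As background, BCL2-like survival proteins hold the effectors BAX and BAK1 and the BH3-only proteins in check. BH3-only proteins are made or activated under stress, bind the groove of the survival proteins and so free the effectors, which then open the outer membrane and release cytochrome c. MCL1 and NOXA, the product of PMAIP1, turn over fast as mRNA and protein, and NOXA binds MCL1 in particular. BIM (BCL2L11) and PUMA (BBC3) bind every survival protein.

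The 3′ ends on which the reads lay are shown because some of the results concern which end was used. Each line gives the mRNA strand 5′ to 3′ around the polyadenylation signal, in capitals, as read from hg38 at the end of the deposited interval.
MCL1, chr1:150574559-150574588, minus strand: ctgagaaaaaaaAATAAAtcttttattcaa
BCL2L11 distal end, chr2:111168414-111168443, plus strand: taattttataaaAATAAAactttcaactag
BCL2L11 upstream end, chr2:111128811-111128837, plus strand: cattggtgattaAATAAAatgtatttt
PMAIP1 long form, chr18:59904275-59904304, plus strand: tggcagtaaactATTAAAagttttcactgt
PMAIP1 short form, chr18:59903518-59903537, plus strand: ataaccagggatAATAAAaa
BBC3, chr19:47220829-47220858, minus strand: tgtttccttttcAATAAAatcagattggaa
The signal searched was AATAAA or ATTAAA on the mRNA strand, within the last 50 bases of an interval. AATAAA was present in 64.6% of the main intervals of 9888 genes, and either signal in 79.5%. The main interval of every member held a signal, which was ATTAAA in the PMAIP1 long form and AATAAA in the others.

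Mapped reads ranged from 35517462 to 53592904 per library, T>C reads on genes from 1011605 to 1576125, and the labelled share of a whole library from 5.04% to 5.70%. All 11 markers of prostate luminal epithelium had reads in every library, with TMPRSS2 lowest at 1.05 to 2.66 CPM and KLK3 at 2.50 to 8.33 CPM. The markers of leukocytes (4 of 4), endothelium (3 of 3) and fibroblasts (3 of 4) stayed under 1 CPM throughout. The remaining fibroblast marker, COL1A1, was at 1.62 to 3.27 CPM, in the range of the lowest luminal markers. Replicates differed by 3.54 to 4.90 times the sampling noise (chi-square per degree of freedom), so none is a library deposited again. The labels do not say that replicates were separate cultures, so p-values measure the spread between these libraries. A library without 4-thiouridine was not analysed here, so the share of T>C reads that come from sequencing error is unknown.

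Of the members called with THZ531, BCL2L11 had the largest log2 change in total RNA. Of the 10 members, all could be tested in total RNA and 8 in nascent RNA, because BAK1 (0 to 7 T>C reads per library) and BIK (0 to 7) fell under the count filter. In total RNA, 5 members rose and 1 fell with THZ531, beside 30.7% of all genes called. With THZ531 + Endovion 4 rose and 2 fell, beside 29% of all genes. With SRPIN340 and with Endovion alone 2 members rose and none fell in either, the same 2 genes, MCL1 and BCL2L11, beside backgrounds of 1.96% and 11.4%. The treatments share their control libraries. Below, where treated libraries lie wholly above or below both control libraries, how many of all genes do so was not counted. Such statements describe the libraries and are no result about the members. A call here is a Benjamini-Hochberg adjusted p under 0.05 over all 14690 genes tested in total RNA or 9946 in nascent RNA, by edgeR's quasi-likelihood test.

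In nascent RNA, 2 members rose with THZ531, beside a background of 7.46%, and 3 rose with THZ531 + Endovion, beside 8.1%, and no member fell. No member passed with SRPIN340 (background 1.04%) or with Endovion (2.66%), where 2 and 3 members had an unadjusted p under 0.05 in edgeR and DESeq2 also called none. At the limit of the study's methods, an unadjusted p under 0.05 with a log2 fold change of 1 or more in either direction, no member passed with SRPIN340 (4.66% of all genes) and BCL2L11 passed with Endovion (6.49%) and with THZ531 (12%). With THZ531 + Endovion BCL2L11 rose and BCL2L1 fell past that limit (11.3%). The median log2 fold change of the members tested in nascent RNA was 0.01 with SRPIN340, 0.11 with Endovion, 0.16 with THZ531 and 0.21 with THZ531 + Endovion, against -0.01, -0.01, -0.02 and -0.01 over all genes tested.

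**Figure D1:**
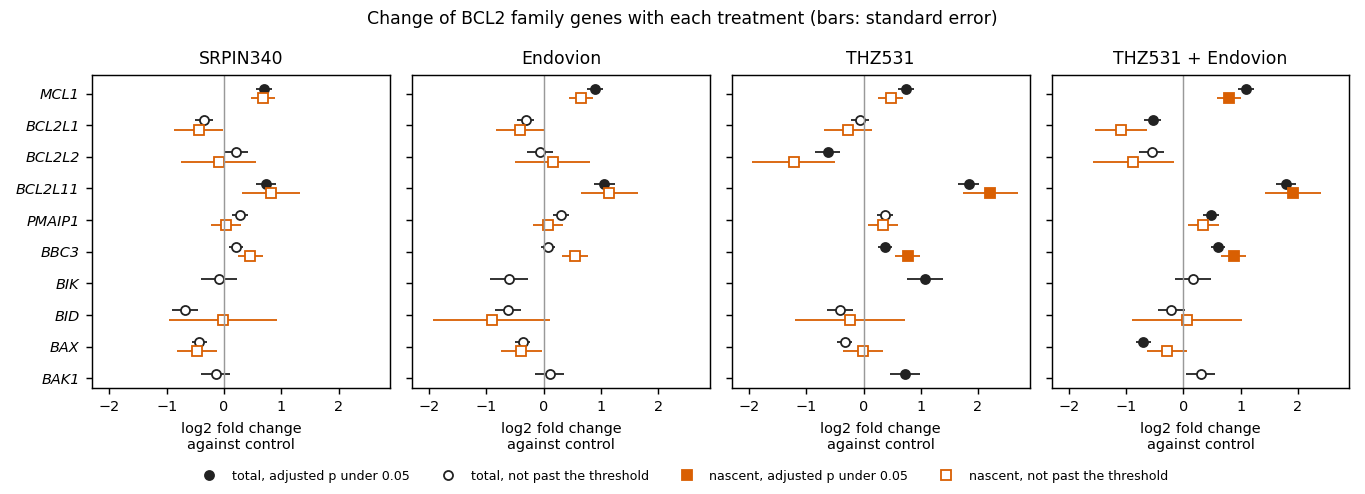
Log2 fold change against control (horizontal axis) of each member in total RNA (black circles) and nascent RNA (orange squares), 1 panel per treatment; bars are standard errors and filled symbols passed an adjusted p under 0.05. BCL2L11 lies furthest to the right with THZ531, at 1.84 in total and 2.21 in nascent RNA, and MCL1 lies right of 0 in every panel.

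MCL1, the survival protein that NOXA binds, was higher in total RNA in every treated library than in either control library. Its total level was 166 and 123 CPM in the control libraries, 223 and 245 with SRPIN340, 280 and 258 with Endovion, 236 and 246 with THZ531, and 338 and 278 with THZ531 + Endovion. The log2 fold changes in total RNA were 0.69 ± 0.14 (SE) with SRPIN340 (edgeR adjusted p = 0.0241), 0.90 ± 0.14 with Endovion (0.00235), 0.74 ± 0.14 with THZ531 (0.00109) and 1.09 ± 0.14 with THZ531 + Endovion (7.57e-05). All 4 passed, and the call with SRPIN340 was lost without control replicate 2 (0.46, 0.328) or without SRPIN340 replicate 2 (0.62, 0.245). The call with SRPIN340 was also lost in a fit of the 2 groups alone (edgeR adjusted p = 0.13). So it was with a plain sum of all intervals, overlapping ones included (0.0633). These are bulk libraries, in which more RNA per cell and more cells with that RNA cannot be told apart.

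In nascent RNA the control libraries of MCL1 stood apart from each other. The nascent level was 152 CPM (236 T>C reads) in control replicate 1 and 81.0 CPM (101 T>C reads) in control replicate 2. It was 170 and 208 CPM with SRPIN340, 195 and 174 with Endovion, 169 and 157 with THZ531, and 223 and 185 with THZ531 + Endovion. Every treated library again lay above both control libraries, although with THZ531 the lower library exceeded control replicate 1 by little. MCL1 passed with THZ531 + Endovion (log2 fold change 0.80 ± 0.21, edgeR adjusted p = 0.0103) and not with SRPIN340 (0.69 ± 0.21, 0.110), Endovion (0.65 ± 0.21, 0.0897) or THZ531 (0.47 ± 0.21, 0.180). These calls rest on the control library used. With a plain sum of intervals the call with THZ531 + Endovion was lost (edgeR adjusted p = 0.118). Without control replicate 1 the nascent change of MCL1 passed also with SRPIN340 (1.25, adjusted p = 0.00129 by edgeR), Endovion (1.20, 0.00145) and THZ531 (1.03, 0.00529), and without control replicate 2 the call with THZ531 + Endovion was lost at a log2 change of 0.43 (0.357), as it was without THZ531 + Endovion replicate 1 (0.65, 0.196).

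BCL2L1, which codes for BCL-XL, moved the other way. Its total level was 23.2 and 24.8 CPM in the control libraries and 15.3 and 17.8 CPM with THZ531 + Endovion, a fall of 0.54 ± 0.15 on the log2 scale (edgeR adjusted p = 0.0164). The call was lost without control replicate 2 (edgeR adjusted p = 0.0642) or THZ531 + Endovion replicate 1 (0.0958). The levels were 19.1 and 18.5 CPM with SRPIN340, 20.4 and 18.1 with Endovion and 23.0 and 22.8 with THZ531, all below both control libraries, and none of these differences passed (adjusted p = 0.220, 0.195 and 0.784). In nascent RNA BCL2L1 was at 43.1 and 27.3 CPM in control and at 12.7 and 20.7 with THZ531 + Endovion. That difference was -1.09 ± 0.45 in log2 (edgeR adjusted p = 0.132), and it rests on 15 and 21 T>C reads against 67 and 34.

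BCL2L2, which codes for BCL-W, was lower in total RNA in both THZ531 libraries. It was at 11.5 and 8.58 CPM in control, 6.56 and 6.43 with THZ531 and 6.93 and 6.75 with THZ531 + Endovion. The groups do not overlap. With THZ531 it fell by 0.63 ± 0.22 on the log2 scale (edgeR adjusted p = 0.0435), and with THZ531 + Endovion the difference was -0.55 ± 0.22 (0.0733). The former call was lost without control replicate 1 (-0.40, adjusted p = 0.275 by edgeR), either THZ531 library, either SRPIN340 library, Endovion replicate 1 or THZ531 + Endovion replicate 2 (0.0509 to 0.125). The call with THZ531 was also lost in a fit of the 2 groups alone (edgeR adjusted p = 0.0888) and with a plain sum of intervals (0.0692). SRPIN340 (12.5 and 10.7 CPM) and Endovion (10.98 and 8.16) overlapped control.

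**Figure D2:**
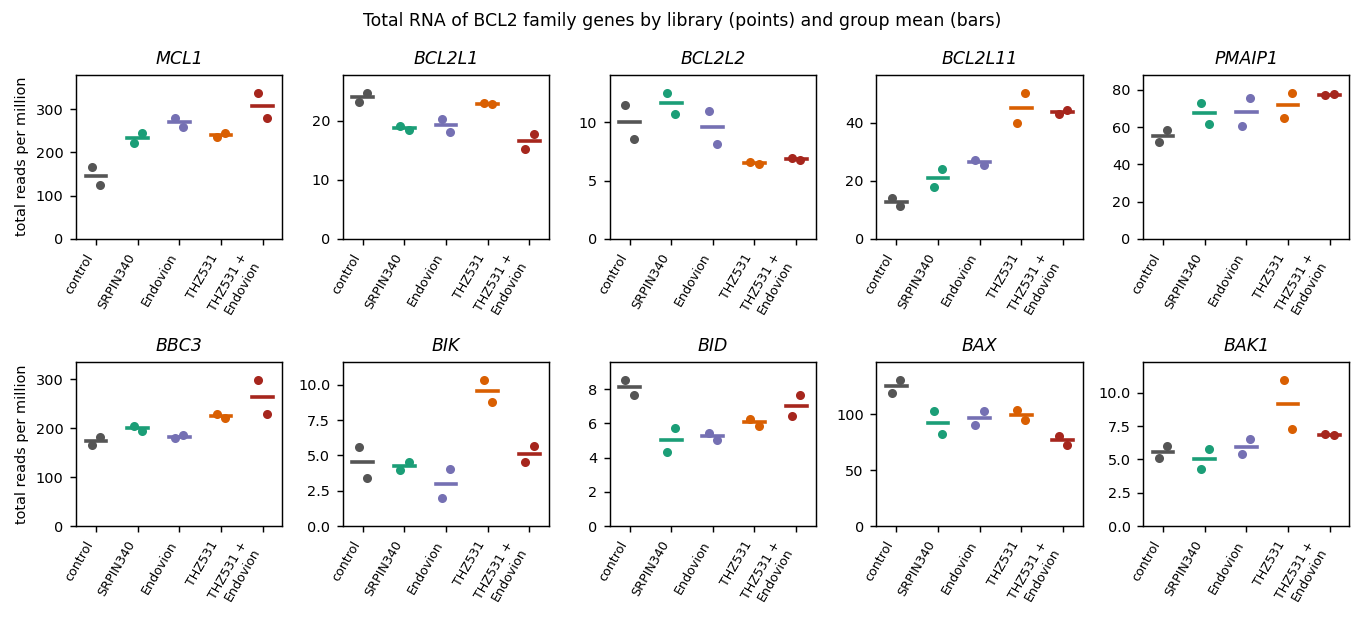
Total level in CPM (vertical axis, from 0, scaled for each gene) of the 10 members in each library; points are libraries, replicate 1 on the left, and bars are group means. Every treated library of MCL1 and BCL2L11 lies above both control libraries, BIK is high with THZ531 alone, and BAX is lowest with THZ531 + Endovion.

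BCL2L11, the gene of BIM, had the largest log2 change of the members in both measures with THZ531. Its total level was 14.05 and 11.1 CPM in control, 17.8 and 24.0 with SRPIN340, 27.2 and 25.4 with Endovion, 40.0 and 50.2 with THZ531, and 43.1 and 44.5 with THZ531 + Endovion. The order of the group means in total RNA was control, SRPIN340, Endovion and then both THZ531 groups, which overlap each other. The log2 fold changes in total RNA were 0.73 ± 0.18 with SRPIN340 (edgeR adjusted p = 0.0458), 1.06 ± 0.18 with Endovion (0.00293), 1.84 ± 0.18 with THZ531 (7.59e-06) and 1.79 ± 0.18 with THZ531 + Endovion (1.44e-05). In a fit of the 2 groups alone SRPIN340 did not pass (edgeR adjusted p = 0.159). Nor did it with a plain sum of intervals (0.149) or with DESeq2's size factors in edgeR (0.0536). The call with SRPIN340 was lost without control replicate 2 (0.53, edgeR adjusted p = 0.472), SRPIN340 replicate 2 (0.49, 0.463) or any library of Endovion or THZ531 + Endovion (0.0614 to 0.0794), and also with the replicate number as a block (0.72, 0.0767), and the call with Endovion without control replicate 2 (0.86, 0.0513).

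The nascent level of BCL2L11 rested on few reads in control, 14 and 10 T>C reads per library, or 9.01 and 8.02 CPM. It was 12.2 and 18.2 CPM with SRPIN340, 21.5 and 16.4 with Endovion, 43.0 and 36.6 with THZ531 (66 and 36 T>C reads), and 36.4 and 28.5 with THZ531 + Endovion. Each treated library was above both control libraries. The log2 fold change was 2.21 ± 0.48 with THZ531 (edgeR adjusted p = 0.00121) and 1.92 ± 0.49 with THZ531 + Endovion (0.00651). Those with SRPIN340 (0.82 ± 0.50, 0.605) and Endovion (1.15 ± 0.50, 0.266) did not pass. With a plain sum of intervals THZ531 + Endovion did not pass either (edgeR adjusted p = 0.0609). The call with THZ531 held in all 10 fits that left out 1 library, and that with THZ531 + Endovion was lost without control replicate 2 (0.0630) or without THZ531 + Endovion replicate 1 (0.102).

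The reads of BCL2L11 came from separate 3′ ends, the distal and the upstream end printed above. The distal interval (chr2:111164232-111168447 on hg38, 3′ UTR) carries most reads. The upstream interval (chr2:111128752-111128837, 3′ UTR of a shorter transcript, 86 bases) lies in intron 2 of the 4-exon transcript that uses the distal end, 39610 bases before that end. It had 14 and 7 reads in the control libraries, 15 and 12 with SRPIN340, 20 and 16 with Endovion, 120 and 91 with THZ531, and 47 and 59 with THZ531 + Endovion. A shorter form of the distal interval (chr2:111164232-111165048) is also listed, without either signal at its end. Reads in it are part of those in the distal interval. This shorter form held 16.2% and 30.9% of the gene's reads in control, 8.21% and 9.13% with SRPIN340, and 11.3% and 8.38% with Endovion. Its values were 18.2% and 21.2% with THZ531 and 18.4% and 12.5% with THZ531 + Endovion.

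The upstream end held a mean of 3.10% ± 0.64 (SD, n = 2) of the gene's reads in control, 2.37% ± 1.11 with SRPIN340, 2.97% ± 0.22 with Endovion, 10.4% ± 0.95 with THZ531 and 5.86% ± 1.53 with THZ531 + Endovion. Both THZ531 libraries (11.1% and 9.71%) lie above both libraries of THZ531 + Endovion (4.78% and 6.94%), which lie above both control libraries (3.55% and 2.64%). No test of end use was made, and 2 libraries against 2 cannot go below an exact p of 0.33. T>C reads at the upstream end were 0 and 0 in control, 4 and 1 with SRPIN340, 0 and 0 with Endovion, 7 and 4 with THZ531, and 0 and 6 with THZ531 + Endovion. The distal end changed as well, from a mean of 12.2 CPM in control to 40.5 with THZ531 and 41.2 with THZ531 + Endovion, and the total log2 fold change over the distal interval alone was 1.74 with THZ531 (edgeR adjusted p = 1.29e-05).

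**Figure D3:**
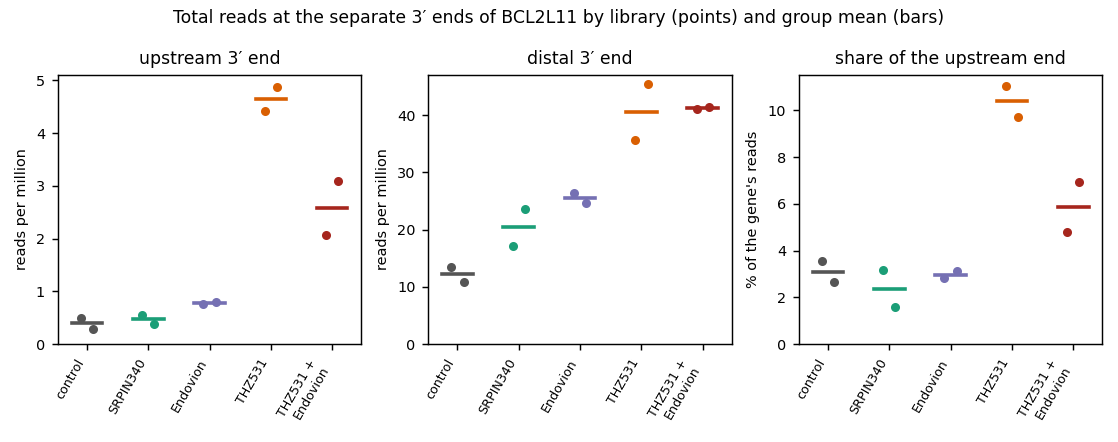
Total level in CPM at the upstream and distal 3′ ends of BCL2L11 and the upstream end's percentage of the gene's reads (vertical axes, from 0), by group; points are libraries and bars are means. The upstream end is at 0.40 CPM in control and 4.65 CPM with THZ531, and its share is 10.4% with THZ531 and 5.86% with THZ531 + Endovion.

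PMAIP1, the gene of NOXA, was called in total RNA with THZ531 + Endovion and in no other comparison with control. Its total level was 52.0 and 58.7 CPM in control, 72.9 and 61.9 with SRPIN340, 60.8 and 75.8 with Endovion, 64.9 and 78.5 with THZ531, and 77.2 and 77.6 with THZ531 + Endovion, so that every treated library was above both control libraries. PMAIP1 rose with THZ531 + Endovion, by a log2 fold change of 0.48 ± 0.14 in total RNA (edgeR adjusted p = 0.0192), a call that was lost without control replicate 1 (0.0912) or either THZ531 + Endovion library (0.115 and 0.0715). With a plain sum of intervals the call with THZ531 + Endovion was lost as well (edgeR adjusted p = 0.0555). The differences with SRPIN340 (0.28 ± 0.14), Endovion (0.30 ± 0.14) and THZ531 (0.37 ± 0.14) had edgeR adjusted p of 0.293, 0.185 and 0.0596.

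In nascent RNA PMAIP1 was at 59.2 and 88.3 CPM in the control libraries, and the treated libraries ran from 71.4 to 108 CPM, so that every group overlapped control. The nascent log2 fold changes ran from 0.03 ± 0.26 with SRPIN340 to 0.35 ± 0.27 with THZ531 + Endovion, and the smallest edgeR adjusted p was 0.477. A shorter form of its 3′ UTR, ending at the AATAAA printed above, held 77.4% and 80.1% of the gene's reads in control and 72.2% to 75.1% in the 8 treated libraries. All treated libraries were below both control libraries in that share, and no test of it was made. Reads in the shorter interval are part of those in the longer one.

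BBC3, the gene of PUMA, was called in both measures in both THZ531 groups. Its nascent level was 80.5 and 130 CPM in control, 168 and 120 with SRPIN340, 137 and 168 with Endovion, 190 and 166 with THZ531, and 225 and 159 with THZ531 + Endovion. The nascent log2 fold change was 0.77 ± 0.22 with THZ531 (edgeR adjusted p = 0.0207) and 0.88 ± 0.22 with THZ531 + Endovion (0.00651), and SRPIN340 (0.46 ± 0.22, 0.454) and Endovion (0.54 ± 0.22, 0.227) did not pass. DESeq2 did not call the change with THZ531 (adjusted p = 0.0636). Nor did edgeR in a fit of the 2 groups alone (0.056) or with a plain sum of intervals (0.156). With that plain sum the call with THZ531 + Endovion was lost too (0.0978). The first call was lost without control replicate 1 (0.48, edgeR adjusted p = 0.284) or either THZ531 library (0.164 and 0.0633), and the second without control replicate 1 (0.58, 0.165) or THZ531 + Endovion replicate 1 (0.61, 0.257).

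In total RNA BBC3 was at 165 and 183 CPM in control, 229 and 220 with THZ531, and 299 and 229 with THZ531 + Endovion. The total log2 fold change was 0.37 ± 0.12 (edgeR adjusted p = 0.0319) and 0.60 ± 0.12 (0.00226). The former was lost without any 1 of the control or THZ531 libraries (0.0677 to 0.172), the latter without THZ531 + Endovion replicate 1 (0.33, 0.0983). SRPIN340 (205 and 195 CPM) and Endovion (179 and 186) had log2 differences of 0.20 ± 0.12 and 0.07 ± 0.12 in total RNA, which did not pass. The total call of BBC3 with THZ531 was also lost in a fit of the 2 groups alone (edgeR adjusted p = 0.0735) and with a plain sum of intervals (0.0507).

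The other BH3-only genes were at low counts. BIK, a BH3-only protein of the endoplasmic reticulum, was at 5.60 and 3.41 total CPM in control, 10.3 and 8.74 with THZ531 and 4.56 and 5.65 with THZ531 + Endovion. It rose with THZ531 by a log2 fold change of 1.08 ± 0.31 in total RNA (edgeR adjusted p = 0.0159), a call lost without control replicate 2 (0.73, 0.166) or THZ531 replicate 1 (0.91, 0.0812). With THZ531 + Endovion its log2 difference was 0.17 ± 0.32 (0.724). BID, which caspase-8 cleaves to link death receptors to mitochondria, was at 8.52 and 7.66 total CPM in control. It was at 4.34 to 7.64 in the 8 treated libraries, the highest of which barely differed from the lower control library. None of the differences of BID passed, the nearest being -0.63 ± 0.23 with Endovion (edgeR adjusted p = 0.0896). Its T>C reads were 2 to 13 per library.

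**Figure D4:**
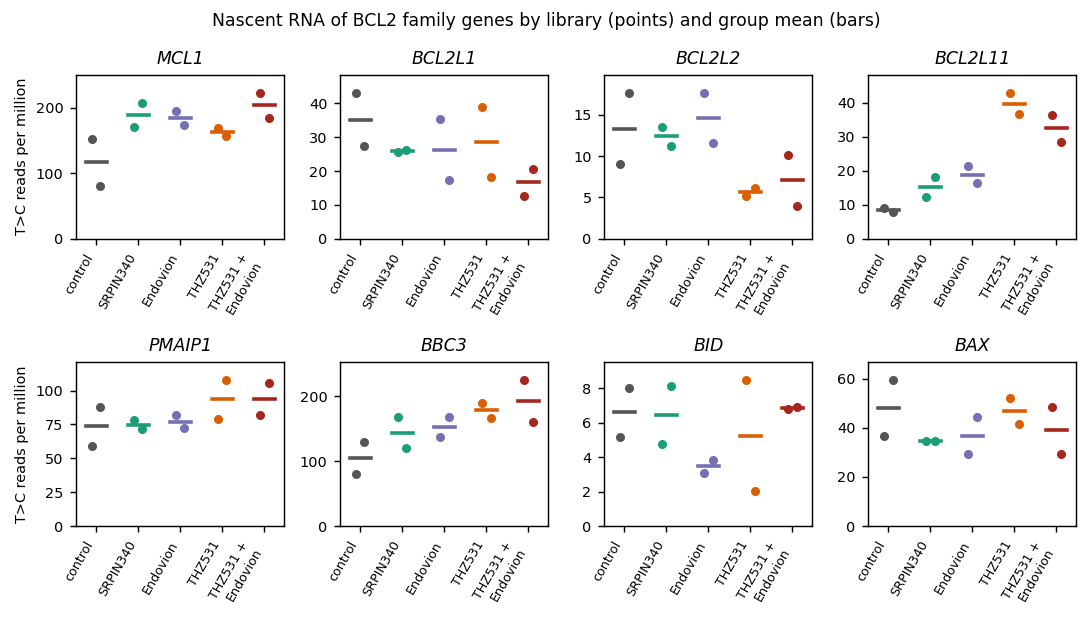
Nascent level in CPM (vertical axis, from 0, scaled for each gene) of the 8 members tested in nascent RNA; points are libraries, replicate 1 on the left, and bars are group means. The control libraries of MCL1 are at 152 and 81.0, and the 4 libraries with THZ531 hold the highest values of BCL2L11, between 28.5 and 43.0.

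Of the effectors, BAX was called in 1 comparison and BAK1 in another, in opposite directions. BAX, which moves to the mitochondrial membrane and forms pores, was at 119 and 130 total CPM in control, 103 and 82.1 with SRPIN340, 90.5 and 103 with Endovion, 103 and 95.1 with THZ531, and 80.8 and 72.6 with THZ531 + Endovion. All treated libraries were below both control libraries. BAX fell by 0.70 ± 0.13 on the log2 scale with THZ531 + Endovion (edgeR adjusted p = 0.00114), a call that held in all 10 fits that left out 1 library. The total differences with SRPIN340 (-0.43 ± 0.13), Endovion (-0.37 ± 0.13) and THZ531 (-0.33 ± 0.13) had edgeR adjusted p of 0.0866, 0.0736 and 0.0640, and DESeq2 called the first (0.0365) and the second (0.0406). In nascent RNA BAX, at 36.7 and 59.4 CPM in control and 29.2 to 52.1 in the treated libraries, had no call (smallest edgeR adjusted p 0.688).

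BAK1, which sits in the outer membrane, was at 5.13 and 5.97 total CPM in control, 4.26 and 5.75 with SRPIN340, 5.39 and 6.53 with Endovion, 10.95 and 7.29 with THZ531, and 6.89 and 6.80 with THZ531 + Endovion. It rose with THZ531 by a log2 fold change of 0.72 ± 0.25 in total RNA (edgeR adjusted p = 0.0401). The call was lost in a fit of the 2 groups alone (edgeR adjusted p = 0.0982). It was also lost without THZ531 replicate 1, its higher library (log2 fold change 0.35). The same held without either control library, either Endovion library or THZ531 + Endovion replicate 1.

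Adding Endovion to THZ531 gave no call among the members. Against THZ531 alone, 0 of 8 members passed in nascent RNA (background 0.322%; none at an unadjusted p under 0.05, and none by DESeq2) and 0 of 10 in total RNA (0.511%; 4 at an unadjusted p under 0.05, none by DESeq2). Those 4 were MCL1 (log2 difference 0.35 ± 0.14), BCL2L1 (-0.47 ± 0.16), BAX (-0.37 ± 0.13) and BIK (-0.91 ± 0.31), with edgeR adjusted p from 0.216 to 0.317. The interaction asks whether the change with THZ531 is the same with and without Endovion. In nascent RNA edgeR called it for 0 of 8 members (background 0.302%), with 1 at an unadjusted p under 0.05, and DESeq2 for 0. In total RNA edgeR called it for 0 of 10 (0.00681%), with 3 at an unadjusted p under 0.05, and DESeq2 for 1. The background of 0.00681% is edgeR's, which called 1 gene of 14690. DESeq2 called 207 genes for the interaction in total RNA, so its call of a member is not to be set beside that share.

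The member with the smallest interaction p was BCL2L11, with a log2 interaction of -1.10 ± 0.25 in total RNA. The change with the combination, 1.79, was thus smaller than the sum of 1.84 and 1.06 from the single treatments. The edgeR p was 0.000383 before and 0.229 after adjustment, while DESeq2 called it (-1.08, adjusted p = 0.0142), as did edgeR with no count filter (-1.07, 0.000522) and without control replicate 1 (-1.28, 0.0109) or THZ531 replicate 1 (-1.21, 0.0258). The call therefore depends on these choices.

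The ratio of NOXA to MCL1 transcripts was taken within each library as T>C reads of PMAIP1 over T>C reads of MCL1. It was 0.390 and 1.09 in the control libraries, 0.460 and 0.343 with SRPIN340, 0.421 and 0.414 with Endovion, 0.469 and 0.688 with THZ531, and 0.369 and 0.569 with THZ531 + Endovion. The control libraries enclose every treated value apart from 0.343 and 0.369, which are lower. The treated-minus-control difference of the log2 ratio was -0.71, -0.64, -0.20 and -0.51 in that order, with exact two-sided permutation p of 0.667, 1, 1 and 0.667, where 0.33 is the smallest this design can give.

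The label in short-lived MCL1 and PMAIP1 was then set beside the other 8 members. In the control libraries together, 7.07% of PMAIP1 reads and 4.44% of MCL1 reads carried a conversion, against 8.14% of BCL2L1, 6.84% of BCL2L2, 4.28% of BID, 3.64% of BCL2L11, 3.19% of BBC3, 2.03% of BAX, 1.40% of BAK1 and 0.84% of BIK reads. The control libraries differed in BCL2L1 (10.3% and 5.77%) and BCL2L2 (4.35% and 10.8%), so that the order of these members depends on the library. The median gene had 5.19%, with quartiles of 3.55% and 8.21% over 9946 genes. PMAIP1 was above the median of the other 8 members in 10 of 10 libraries and MCL1 in 4 of 10. The share of MCL1 thus lay below that of the median gene, and the order does not put both short-lived mRNAs first.

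A gene's share depends on how many T positions its reads cover, from 15.9 per read in BCL2L1 to 38.7 in BBC3 in the control libraries. Per 1000 covered T positions, PMAIP1 had 7.08 conversions, BCL2L1 5.28, BCL2L2 4.48, BCL2L11 3.53, BID 2.01, MCL1 1.996, BAK1 1.24, BAX 1.15, BBC3 0.99 and BIK 0.45, with a median gene at 2.32. These values pool both control libraries, which differed: BCL2L11 was at 4.97 and 1.32 (58 and 10 conversions), BCL2L2 at 2.43 and 7.89, BCL2L1 at 6.54 and 3.92 and PMAIP1 at 7.08 in each. The place of BCL2L11 above the median gene thus rests on control replicate 1, and the order of BCL2L1, BCL2L2 and BCL2L11 is not settled. On this pooled scale PMAIP1 was the first of the members, above 91.7% of all genes, and MCL1 was above 41.9% of genes, and above the median of the other 8 members in 8 of 10 libraries. The T>C reads of PMAIP1 carried 2.34 conversions each in control and those of MCL1 1.25, against 1.04 in the median of 8714 genes with at least 20 such reads in the control libraries. BCL2L11 had 2.83, over 24 T>C reads, with 58 of its 68 conversions in control replicate 1.

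The labelled share of no member passed the threshold with any treatment: 0 of 8 were called with SRPIN340 (background 0.181%), Endovion (0.292%), THZ531 (0.312%) or THZ531 + Endovion (1.05%), and in each comparison 1 had an unadjusted p under 0.05 in edgeR. That member was BBC3 each time. Its share was 2.70% (95% exact binomial interval 2.25% to 3.20%) and 3.73% (3.18% to 4.34%) in control and 3.13% to 4.69% in the treated libraries. Pooled over the libraries of a group it was 3.19% in control, 3.78% with SRPIN340, 4.18% with Endovion, 4.41% with THZ531 and 3.82% with THZ531 + Endovion. The test compares T>C reads with reads without a conversion, relative to the other genes, so its values are not log2 changes of these percentages. They were 0.42 ± 0.18, 0.66 ± 0.18, 0.57 ± 0.18 and 0.46 ± 0.18 in log2 in the order SRPIN340, Endovion, THZ531 and THZ531 + Endovion (edgeR adjusted p = 0.484, 0.121, 0.214 and 0.275). The share of MCL1 was 5.07% (4.46% to 5.74%) and 3.44% (2.81% to 4.17%) in control and 3.36% to 4.30% in the treated libraries. These intervals cover counting error alone.

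**Figure D5:**
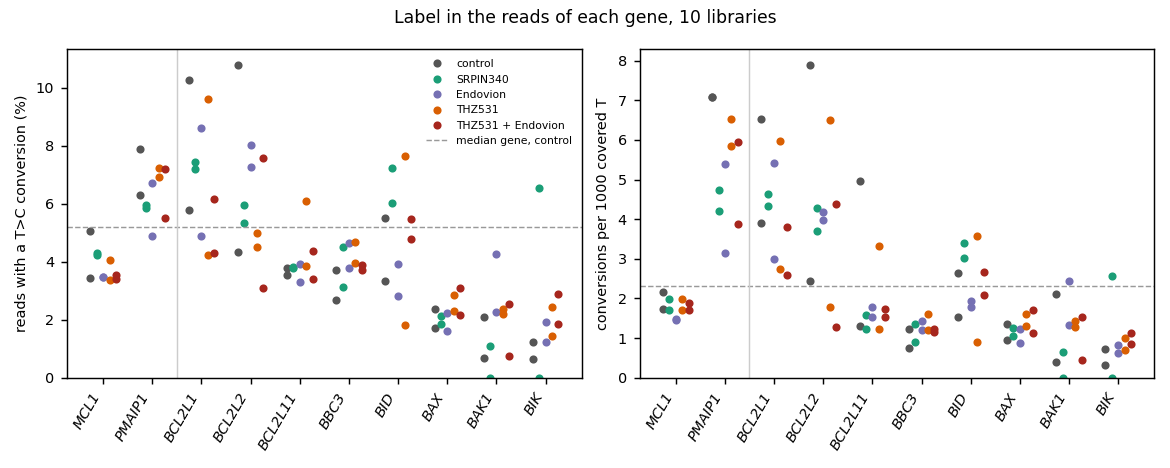
Percentage of reads with a T>C conversion (left) and conversions per 1000 covered T positions (right) of each member in all 10 libraries, colored by group; the dashed line is the median gene in control, and MCL1 and PMAIP1 stand left of the grey line. PMAIP1 is at 4.90% to 7.88%, MCL1 at 3.36% to 5.07%, and BAX at 1.61% to 3.09%.

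The 3′ sequences of the members were compared for ATTTA, the core of AU-rich elements that many short-lived mRNAs carry, on the mRNA strand. MCL1 held 10 in its main interval of 2824 bases (3.54 per kb, above 78.9% of genes) and PMAIP1 5 in 1553 bases (3.22 per kb, above 74.7%). These were the highest densities among the members. BCL2L11 held 8 in 4216 bases (1.90 per kb), BCL2L2 5 (1.79), BCL2L1 3 (2.004), BID 2 (1.39) and BIK 1 (2.46), and BBC3, BAX and BAK1 held none. The median gene had 1.83 per kb, and 75.1% of genes had at least 1.

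Genes with a pattern like that of MCL1 and PMAIP1 were looked for over the log2 nascent levels of all 10 libraries, among 6795 genes. For MCL1 the nearest were CHMP5 (r = 0.95), FNBP1L (0.95) and EGR1 (0.93), and for PMAIP1 they were EIF3M (0.95), OSBP (0.94) and POU2F1 (0.93). These are descriptions over 10 points that share libraries and groups.

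Around the family, 61 genes of apoptosis in 7 lists were read in the same fits, of which 46 could be tested in nascent and 54 in total RNA. In nascent RNA none was called with SRPIN340 (1.04% of all genes), 1 rose and 1 fell with Endovion (2.66%), 2 rose and 2 fell with THZ531 (7.46%), and 5 rose and 5 fell with THZ531 + Endovion (8.1%). In total RNA 0 rose and 0 fell with SRPIN340 (1.96% of all genes), 14 rose and 3 fell with Endovion (11.4%), 9 and 9 with THZ531 (30.7%), and 12 and 7 with THZ531 + Endovion (29%). The median nascent log2 fold change over all list genes tested ran from -0.03 to 0.12 across the treatments, against -0.02 to -0.01 over all genes. Single lists ran from -0.68 (death receptor pathway, 7 genes tested) to 0.47 (transcription factors that act on BH3-only genes, 6 genes tested), both with THZ531 + Endovion.

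Among transcription factors that act on BH3-only genes, JUN, whose product is known to act on BCL2L11 in stressed neurons, rose in nascent RNA with Endovion (log2 fold change 1.29 ± 0.24, edgeR adjusted p = 0.000417), THZ531 (1.24 ± 0.24, 0.000441) and THZ531 + Endovion (1.58 ± 0.24, 5.31e-06). Among the caspases and their targets, DFFA, the inhibitor of the nuclease that cuts DNA in apoptosis, fell with the same treatments, by 0.91 ± 0.22 (0.00871), 1.35 ± 0.22 (3.02e-05) and 1.29 ± 0.23 (5.08e-05) on the log2 scale. In total RNA that list held 5 genes up and 1 down of 10 tested with THZ531 and with THZ531 + Endovion each, beside 30.7% and 29% of all genes called in either direction. With Endovion alone it held 4 up and 1 down, beside 11.4%, and with SRPIN340 0 up and 0 down, beside 1.96%. The death receptor list held 0 up and 4 down of 8 tested with THZ531, and 1 up and 3 down with THZ531 + Endovion. With Endovion alone the death receptor list held 2 up and 1 down. The transcription factor list, with 8 tested in total RNA, held 3 up and 0 down with Endovion (11.4% of all genes). It held 2 up and 1 down with THZ531 (30.7%), 3 and 1 with THZ531 + Endovion (29%), and 0 and 0 with SRPIN340 (1.96%). Those down were DDIT3 with THZ531 (-1.05, edgeR adjusted p = 0.000857) and TP73 with THZ531 + Endovion (-1.30, 0.0384). DDIT3 was among those up with Endovion (0.58, 0.0496).

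In the death receptor pathway, TNFRSF1A, the main TNF receptor, fell in nascent RNA by 1.26 ± 0.30 with THZ531 (edgeR adjusted p = 0.00377) and by 1.16 ± 0.30 with THZ531 + Endovion (0.00859). With THZ531 + Endovion the adaptor FADD fell by 3.01 ± 0.87 (0.0198), and the TRAIL receptors were called in opposite directions, TNFRSF10B up (1.70 ± 0.36, 0.00105) and TNFRSF10A down (-1.46 ± 0.46, 0.0365). TNFRSF10A lies outside the naming rule and was added after its values were seen. It was also down in total RNA with Endovion (-0.49, edgeR adjusted p = 0.0448), THZ531 (-0.70, 0.00267) and THZ531 + Endovion (-0.87, 0.000667). TNFRSF10B was up in total RNA with Endovion (0.82, edgeR adjusted p = 0.0313) and THZ531 + Endovion (1.07, 0.00356). FADD was down in total RNA with THZ531 alone (-1.63, edgeR adjusted p = 9.42e-06) as well as with THZ531 + Endovion (-1.88, 7.46e-06). TNFRSF1A was down there too, with THZ531 (-0.62, 0.00627) and THZ531 + Endovion (-0.47, 0.0306). In nascent RNA with THZ531 + Endovion, MARCHF5, a ubiquitin ligase of the outer membrane that acts in the turnover of MCL1 and NOXA, rose (0.97 ± 0.25, edgeR adjusted p = 0.00835). So did VDAC1, a channel of the same membrane (0.99, 0.0140). VDAC1 rose in nascent RNA with THZ531 as well (0.89, 0.0326).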

How the data were processed

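The 10 members and the pathway lists were chosen with earlier results of these data known. The authors mapped single-end reads of 101 bp from 3′ end libraries, counted conversions with SLAM-DUNK and deposited 1 table per library on hg38. The columns used are raw counts per 3′ interval as deposited by the authors, namely covered T positions, conversions, T>C reads and all reads. The deposited conversion rate (a fraction of covered T) and the deposited read CPM column (treated as a score) were not used. SLAM-DUNK's version, its settings, and whether molecular identifiers were used in counting are not given in the sources used here, so binomial intervals cover counting error only. Per the submitters' processing notes, Bowtie2 2.3.4.1, SAMtools 1.6 and DESeq2 1.38.2 were also used, and the methods tie the first to a separate expression profile.

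Of 104653 intervals, 92910 on main chromosomes matched a transcript of GENCODE v44 and intervals with 3.53% of T>C reads did not. The T count of 31037 of 31037 intervals checked equalled that of hg38. Where intervals of the same gene overlapped, that with the highest read count was kept, and the 57587 kept were summed to 31015 genes. No interval of a member overlapped another gene. T>C reads and all reads were tested with edgeR 4.0.16 (R 4.3.3; filterByExpr, TMM, robust quasi-likelihood fit over all 10 libraries, 5 residual degrees of freedom). TMM sets changes relative to the other genes, so a change common to all genes is not seen. The labelled share was tested as the interaction of read class with treatment, with the library as a block. T>C reads and reads without a conversion were scaled separately, so the tested change in share is also relative to the other genes. A fit of the share that was not relative to the library was added to the alternatives. The alternatives were DESeq2 1.42.0 and its size factors, no count filter, a 2-group fit, a replicate block, a plain sum of intervals, the main interval alone, scaling by all reads, and leaving out each library. The fits were also run on simulated counts with known changes, and the outcome is not given here. For the share, simulated reads without a conversion were drawn around the same mean in every library. They do not follow the library sizes of the data, so that run does not show how the share test behaves on them. Beside the members, the genes named are the 3 with the smallest p in each direction from the pathway lists among those called in nascent RNA. For MCL1 and PMAIP1 they are the 3 genes with the highest Pearson r of log2 T>C CPM (prior count 2) with a mean of at least 20 T>C reads. TNFRSF10A, DDIT3 and TP73 lie outside this rule and were added after their values were seen.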

Additional observations from a re-analysis of the deposited data

How the results depend on the processing

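Across 2372 comparisons of a member's value with an alternative, 2290 kept their side of the threshold, 61 lost a call and 21 gained one. No called value changed sign, and 132 values without a call did. Most of the values compared had no call in the main fit and could not lose one. The 2290 are therefore no measure of how steady the calls are. More of the calls were lost under some alternative than held under all. In nascent RNA, the members called with THZ531 went from 2 to 1 with DESeq2, with a fit of the 2 groups alone, with a plain sum of intervals and at the methods' limit, and those called with THZ531 + Endovion from 3 to 0 with a plain sum, while 1 member (BCL2L11) passed the methods' limit with Endovion, and 0 did in the 2-group fit. In total RNA, members called with SRPIN340 went from 2 to 1 with DESeq2's size factors in edgeR and to 0 in the 2-group fit and with a plain sum; those called with THZ531 went from 6 to 3 in the 2-group fit; and the interaction gained 1 member, BCL2L11, with DESeq2 and with no count filter. The cause was not tested. Leaving out each library in turn gave, in nascent RNA, 0 to 1 members called with SRPIN340 and with Endovion, 1 to 2 with THZ531 and 0 to 3 with THZ531 + Endovion, and 0 to 1, 0 to 1, 1 to 3 and 1 to 3 at the methods' limit. In total RNA it gave 0 to 3 with SRPIN340, 1 to 3 with Endovion, 3 to 6 with THZ531, 3 to 6 with THZ531 + Endovion and 0 to 2 for the interaction. Counted by conversions per covered T position, MCL1 was above the median of the other 8 members in 8 libraries in place of 4. Scaling by all reads put the median nascent log2 change of all genes with Endovion at -0.10, against -0.01 with TMM.

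Same-numbered libraries had correlations of their deviations from -0.11 to 0.10 in nascent and from -0.27 to 0.34 in total RNA over 10 pairs of groups. The medians were 0.003 and 0.02, and 1 pair in nascent and 3 in total RNA were over 0.1. Whether some groups were paired by replicate number is thus not settled. With the replicate number as a block, the members called in total RNA with SRPIN340 went from 2 to 1 through the loss of BCL2L11 (log2 0.72, adjusted p = 0.0767), and the calls over all genes in that comparison from 288 to 96. It moved no other count of members called.

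Depth limits BAK1 and BIK, which had too few T>C reads to be tested in nascent RNA, and BID, whose standard errors there were 0.94 or more in log2 units. DESeq2 called 911 genes in total RNA with SRPIN340 where edgeR called 288, 257 against 75 for THZ531 + Endovion against THZ531, and 207 against 1 for the interaction.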
